A study of Mus musculus with 6 samples.

Results

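ATAC-seq, which maps accessible DNA by letting a transposase cut it and attach adapters, was run on OT1 cells sorted from mouse melanoma, and the regions described here are those where every library had a peak but the count table had none of its regions. Peaks of the 6 lists, 1 per library, were merged wherever they shared at least 1 base, which gave 105737 intervals. All 6 lists contributed a peak to 45569 of them, called shared intervals below. Of these, 44427 overlapped a region of the count table and 1142, or 2.51%, overlapped none. These 1142 uncounted shared intervals are the subject, and because they have no counts of their own they take no part in any test of accessibility made on the table.

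The study asked how tumor-specific CD4 T cells bear on the chromatin of tumor-specific CD8 T cells. In both groups OT1 cells, CD8 T cells with a transgenic receptor for an ovalbumin peptide, were sorted on CD8 and CD45.1, a congenic marker, from tumors of B16-OVA-GP61, a melanoma line with ovalbumin and the epitope GP61. In 1 group, with SMARTA cells (n = 3 libraries), the tumors came from mice that also had SMARTA cells, which are CD4 T cells with a transgenic receptor for GP61. In the other, without SMARTA cells (n = 3 libraries), there were none. The labels used here give no age or strain of the hosts, do not say whether tumors were pooled, and do not say that the replicates were separate animals, so p-values below measure the spread between libraries, which may be technical.

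The peak lists held 76850, 65020 and 75261 peaks in the libraries with SMARTA cells and 73012, 82089 and 81223 in those without. Total counts over the 74686 regions of the table were 16595779 to 27182809 with SMARTA cells and 19149455 to 26218921 without, and library medians per region lay between 62 and 114. Of 9 CD8 T cell marker genes, 8 had counted regions, and these summed to 1422.1 to 1691.7 CPM (counts scaled to a common library size) with SMARTA cells and 1542.2 to 1677.8 CPM without. Regions of 5 of 6 melanoma markers summed to 110.8 to 127.1 CPM with SMARTA cells and 105.8 to 108.7 CPM without, and those of 2 of 2 CD4 T cell markers, Cd4 and Zbtb7b, to 132.0 to 148.7 CPM with and 121.9 to 136.1 CPM without. Those of 2 of 4 B cell markers summed to 27.6 to 34.3 CPM with and 34.6 to 46.0 CPM without. For myeloid cells 3 of 4 markers had counted regions, at 9.8 to 14.7 CPM with SMARTA cells and 13.3 to 15.7 CPM without. The sums ran over 91 regions for CD8 T cells, 11 for melanoma, 8 for CD4 T cells, 7 for B cells and 4 for myeloid cells. They therefore do not compare 1 cell type with another. The defining markers Trac, Tyr, Ms4a1, Cd79a and Lyz2 had no counted region assigned to them. Regions were assigned to protein-coding genes only, and of 10 T cell receptor and coreceptor genes 7 were found among these. For Trac the lack of an assigned region therefore does not show that the locus had none. The part of other cell types in the results below was not tested.

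Open chromatin in a T cell lies mostly at promoters and enhancers, where nucleosomes are displaced and transcription factors bind. Many mammalian genes exist as families of near-identical copies lying side by side, among them the histone genes used when DNA is replicated, the transfer RNA genes, the class I-like genes of the major histocompatibility complex, zinc finger repressors and many interferon-inducible genes. Short reads from such copies can be hard to assign to 1 place.

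Uncounted shared intervals overlapped the promoter windows of 312 genes, 356 windows in all, where a window runs from 250 bases before to 50 bases after an annotated start. In 33 of the 356 windows (9.27%, exact 95% binomial interval 6.47 to 12.77) at least 50% of the 31-base words occurred in another, non-overlapping window as well. Among windows under shared intervals that the table did count, 61 of 12939 did so (0.47%, 0.36 to 0.61), and among windows under no shared interval 1376 of 19522 (7.05%). The order of the uncounted windows and the last set turned at a mark of 80% of words, with 3.65% of uncounted windows and 4.68% of those under no shared interval. Over all 32817 windows the share at 50% was 4.48%. The intervals treat windows as independent, which overlapping windows and copies of each other are not. The best match lay on the same chromosome for 31 of the 33 windows and within 1 Mb for 26. In 14 cases the copy's window was itself under an uncounted shared interval, in 5 it was under a counted one, and in 14 it was under no shared interval. The part of such copies in the absence of counted regions was not tested.

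The following windows (RefSeq, GRCm38.p6) are written 5′ to 3′ on the gene's strand. They are shown because in each pair of neighbouring gene copies both windows lay under an uncounted interval with a peak in all 6 lists. As reads from such copies can be hard to assign, a peak at each does not show that both were open. Capitals mark the bases that differ from the copy or have no aligned base in it. H4c17 and H4c18 encode histone H4, H3c15 and H3c14 encode histone H3, and Ifit3 and Ifit3b are interferon-inducible antiviral genes.
H4c17 promoter window, chr13:21811496-21811795, plus strand: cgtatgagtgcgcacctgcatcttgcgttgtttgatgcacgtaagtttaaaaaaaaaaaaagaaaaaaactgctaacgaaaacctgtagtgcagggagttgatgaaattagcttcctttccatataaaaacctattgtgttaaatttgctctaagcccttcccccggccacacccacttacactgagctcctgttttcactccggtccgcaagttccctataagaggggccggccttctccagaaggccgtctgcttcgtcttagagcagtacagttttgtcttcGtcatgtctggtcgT
H4c18 promoter window, chr13:21832148-21832447, minus strand: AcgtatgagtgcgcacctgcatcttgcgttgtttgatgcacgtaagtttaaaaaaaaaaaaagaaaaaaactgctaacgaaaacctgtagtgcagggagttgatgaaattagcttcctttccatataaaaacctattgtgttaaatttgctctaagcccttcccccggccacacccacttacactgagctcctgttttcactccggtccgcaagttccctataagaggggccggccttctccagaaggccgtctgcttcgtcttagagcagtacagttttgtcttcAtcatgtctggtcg
H3c15 promoter window, chr3:96239078-96239377, minus strand: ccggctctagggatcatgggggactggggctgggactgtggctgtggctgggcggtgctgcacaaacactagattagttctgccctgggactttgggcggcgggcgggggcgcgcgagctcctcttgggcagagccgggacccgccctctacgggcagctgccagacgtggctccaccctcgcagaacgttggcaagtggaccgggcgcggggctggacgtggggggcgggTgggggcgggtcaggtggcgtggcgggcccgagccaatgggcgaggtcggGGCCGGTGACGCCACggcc
H3c14 promoter window, chr3:96246435-96246734, plus strand: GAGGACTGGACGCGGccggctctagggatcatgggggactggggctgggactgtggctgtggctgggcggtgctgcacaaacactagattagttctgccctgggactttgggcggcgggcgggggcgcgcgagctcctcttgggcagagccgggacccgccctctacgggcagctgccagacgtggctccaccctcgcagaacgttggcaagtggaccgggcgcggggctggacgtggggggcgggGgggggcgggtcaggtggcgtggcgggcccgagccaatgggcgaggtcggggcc
Ifit3 promoter window, chr19:34583279-34583578, plus strand: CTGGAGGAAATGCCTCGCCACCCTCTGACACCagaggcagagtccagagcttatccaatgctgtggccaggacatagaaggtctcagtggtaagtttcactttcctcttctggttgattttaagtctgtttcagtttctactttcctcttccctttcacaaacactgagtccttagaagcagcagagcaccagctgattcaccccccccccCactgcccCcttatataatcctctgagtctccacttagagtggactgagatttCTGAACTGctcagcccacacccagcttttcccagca
Ifit3b promoter window, chr19:34607707-34608006, plus strand: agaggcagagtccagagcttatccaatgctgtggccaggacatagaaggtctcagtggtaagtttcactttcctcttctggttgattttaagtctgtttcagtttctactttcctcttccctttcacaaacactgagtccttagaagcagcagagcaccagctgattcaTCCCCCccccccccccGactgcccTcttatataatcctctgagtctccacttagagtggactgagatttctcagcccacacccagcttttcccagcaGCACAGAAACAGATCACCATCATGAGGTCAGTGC

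The 2 histone H4 windows had 298 of 300 bases in common, with 1 mismatch and 1 base unaligned. For the histone H3 pair 284 bases were identical, 1 differed and 15 were unaligned. For the Ifit3 pair the values were 258, 2 and 40. Identity over the aligned bases was 99.7%, 99.6% and 99.2% in that order of pairs.

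Most of the 356 windows fell short of the 50% mark. Fn3krp, the gene of a kinase that repairs glycated proteins, is shown as such a case, with no 31-base word shared with another window. Its capitals mark the 3 matches, 2 of them overlapping, to GGGCGG, a motif of GC-rich promoters read here on either strand.
Fn3krp promoter window, chr11:121421123-121421422, plus strand: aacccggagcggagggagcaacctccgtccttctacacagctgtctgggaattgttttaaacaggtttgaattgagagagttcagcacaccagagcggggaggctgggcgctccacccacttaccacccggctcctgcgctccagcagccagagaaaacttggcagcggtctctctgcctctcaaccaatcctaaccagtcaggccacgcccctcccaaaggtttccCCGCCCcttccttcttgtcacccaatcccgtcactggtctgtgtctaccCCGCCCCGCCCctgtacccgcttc

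The GGGCGG motif was present in 66.6% of windows under uncounted shared intervals, 65.6% of windows under counted ones and 35.6% of all windows. Other motifs were also searched on both strands. The CCAAT box was in 41.9% of uncounted, 36.9% of counted and 37.4% of all windows, and GGAAGT, a motif of ETS factors, in 29.8% of uncounted, 28.3% of counted and 23.8% of all. TTAGGG was in 12.9% of uncounted, 10.2% of counted and 10.6% of all windows. For TGTGGT, a motif of RUNX factors, the shares were 11.2% of uncounted, 12.6% of counted and 16.8% of all windows, and for TGANTCA, a motif of AP-1 factors, 4.5% of uncounted, 4.8% of counted and 7.8% of all. Median GC content of uncounted windows was within 2 percentage points of the 61.7% of counted ones, and it was 52.7% over all.

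The uncounted intervals were spread unevenly over the chromosomes. Of 18 shared intervals on chromosome Y, 14 were uncounted (77.8%). Chromosome 9 followed with 156 of 2569 (6.07%), then chromosome 15 with 93 of 1982 (4.69%), chromosome 16 with 71 of 1593 (4.46%) and chromosome 11 with 131 of 3663 (3.58%). At the other end were chromosome 8 with 14 of 2131 (0.66%) and chromosome 5 with 5 of 2774 (0.18%). Chromosome 9 alone carried 13.7% of the 1142 intervals and chromosome 11 carried 11.5%.

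**Figure D1:**
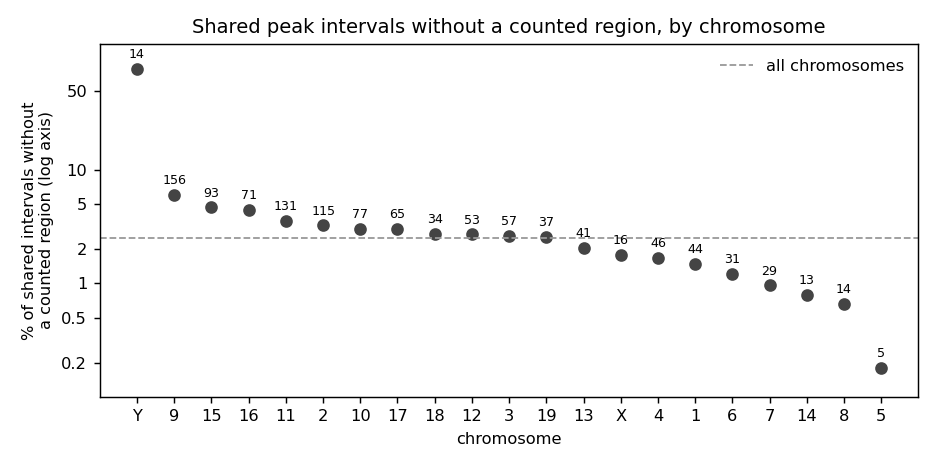
Share of shared peak intervals that overlapped no region of the count table, by chromosome, in percent on a log axis and sorted from high to low; the number above each point is the count of uncounted intervals and the dashed line is the share over all chromosomes (2.51%). Chromosome Y stands at 77.8% and chromosome 5 at 0.18%.

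They also came in runs. The 1142 intervals lay in 454 gaps of the table, a gap being the stretch between consecutive counted regions or between a counted region and a chromosome end. Of these gaps 271 held 1 uncounted interval, 120 held 2 to 4, and 63 held 5 or more, and the last 63 contained 571 intervals (50.0%). The 429 gaps with a counted region on both sides had a median length of 68.3 kb (quartiles 39.5 and 134.8), and those of them with 5 or more intervals, 56 in number, a median of 113.1 kb. Over all 74665 gaps of the table the median was 7.4 kb. A longer gap has more room for an interval, so these lengths describe the runs and are no test of them. A further 25 gaps reached a chromosome end and held 134 intervals, 93 of them at 13 chromosome starts.

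**Figure D2:**
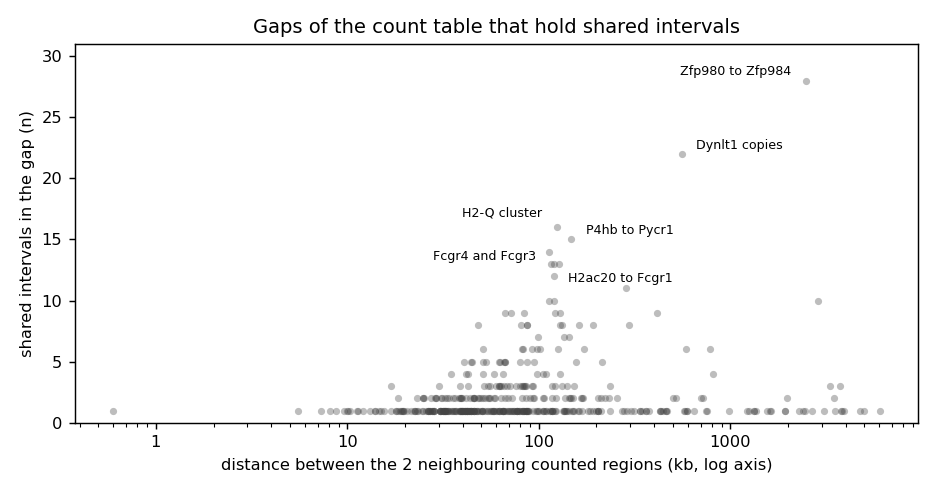
Number of uncounted shared intervals in each of 429 gaps between neighbouring counted regions, against the length of the gap in kb on a log axis; 6 gaps are labelled by genes they contain. Most gaps held 1 interval, and several of the fuller ones, such as those of the H2-Q cluster (16 intervals) and of H2ac20 to Fcgr1 (12), were a little over 100 kb long.

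The fullest gap, on chromosome 4, was 2486.8 kb long and held 28 intervals among zinc finger genes from Zfp980 to Zfp984, whose proteins bind DNA. The start of chromosome 11, up to and within Sfi1, a centriole gene, held 27. At the start of chromosome 9, where Alkbh8 was the only gene assigned, there were 25. On chromosome 17 a gap of 557.4 kb around Tmem181a and the dynein light chain copies Dynlt1a, Dynlt1b, Dynlt1c and Dynlt1f held 22. Also on chromosome 17, 16 intervals lay in a gap of 124.2 kb with H2-Q4, H2-Q6, H2-Q7 and H2-Q10, class I-like genes. Not every full gap held gene copies by name. On chromosome 11, 15 intervals lay in 147.4 kb with P4hb, Arhgdia, Alyref, Anapc11, Pcyt2, Mafg and Pycr1.

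In strength the uncounted intervals were close to the counted ones in the middle and differed at the ends. Fold enrichment here is the authors' own value for a peak, its height over the local background in that library, and each interval is given the strongest of its peaks in each list. The median fold over uncounted intervals was 9.65, 7.5 and 8.8 with SMARTA cells and 6.96, 8.95 and 8.7 without. The median of these 6 values was 8.75 (SD between libraries 1.0). Over counted shared intervals the library medians were 9.52, 6.69 and 8.49 with SMARTA cells and 6.59, 8.71 and 8.53 without, lower than the uncounted ones in 6 of 6 libraries. Both sets come from the same lists, so this is a description and no test was made. The folds of the 2 groups did not overlap in 215 of the 1142 uncounted intervals (18.83%), against 18.2% of all shared intervals, with 165 higher with SMARTA cells (14.45%, against 13.2%) and 50 lower (4.38%, against 4.99%). These shares are near those of all shared intervals, and the lack of overlap at a gene named below is to be read against them.

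Folds differ in scale between libraries, so each was also ranked within its own list as a percentile, and the median percentile over the 6 lists was taken. It had a median of 70.7 (quartiles 48.6 and 88.6) in uncounted intervals and 69.0 (51.8 and 84.5) in counted ones. The uncounted share was 6.09% among shared intervals with a percentile of 0 to 10, reached its lowest value, 1.93%, at 60 to 70, and was 3.6% at 90 to 100. At the very top it was far higher. Of the 10 shared intervals with the highest percentile 9 were uncounted, of the top 100 23, and of the top 1000 68. In single libraries 8 to 10 of the top 10 and 19 to 29 of the top 100 were uncounted. Ranked by the authors' −log10 q instead, 4 of the top 10 and 7 of the top 100 were uncounted, and those 4 were the first 4.

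**Figure D3:**
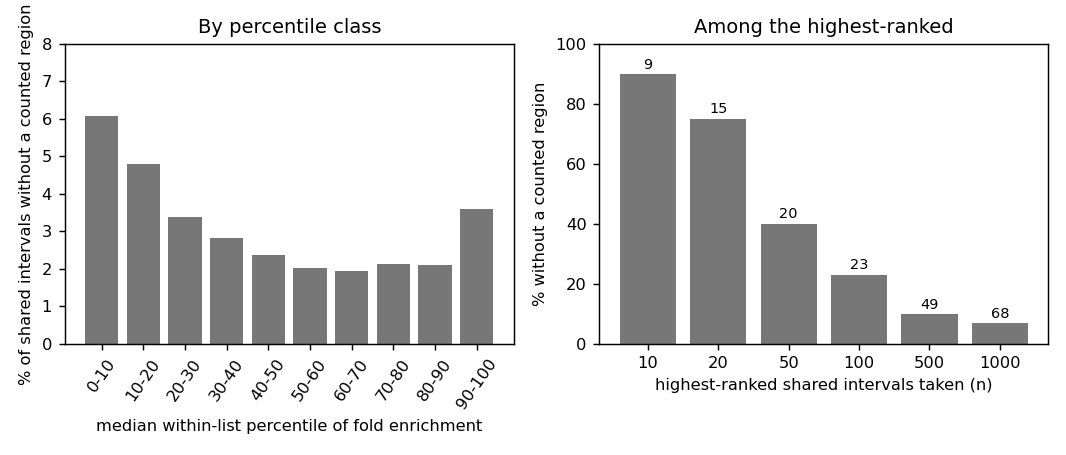
Left, percent of shared intervals that overlapped no counted region, in 10 classes of the median within-list percentile of fold enrichment; right, the same percent among the highest-ranked shared intervals, with the number of uncounted ones above each bar. The left bars are lowest at 60 to 70 (1.93%) and the right bars start at 9 of 10 and end at 68 of 1000.

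Width separated the sets little. Uncounted intervals had a median width of 924.5 bases (quartiles 553.25 and 1235.75, range 151 to 3881), and counted shared intervals 965 (633 and 1264). Each list contributed exactly 1 peak to 850 of the uncounted intervals (74.4%), against 71.6% of counted ones. The summits of the strongest peaks of the 6 lists lay within 50 bases of each other in 825 uncounted intervals (72.2%), against 71.9% of counted ones. In the placing of peaks the 6 libraries were about equally close in both sets.

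Relative to protein-coding genes, 405 uncounted intervals (35.5%, exact 95% binomial interval 32.7 to 38.3) lay within 2 kb of a gene end, against 32.5% of counted shared intervals. A gene end here is either boundary of the gene, its start included. The binomial range treats the uncounted intervals as independent, which neighbours in a run are not, so it may be too narrow. Fewer lay inside a gene, 590 (51.7%) against 66.3%, and more lay beyond 100 kb from any, 105 (9.19%) against 3.73%. The 1037 intervals with a gene inside or within 100 kb were assigned to 590 genes, 208 of which had 2 or more. By annotated overlap with any gene model, 39 of 323 shared intervals over a pseudogene were uncounted (12.1%), as were 17 of 166 over a transfer RNA gene (10.2%), 5 of 45 over a small nuclear RNA gene (11.1%) and 590 of 30044 over a protein-coding gene (1.96%).

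The nearest counted region was a median of 26.7 kb away (quartiles 13.0 and 57.5). It lay within 10 kb of 225 intervals (19.7%) and within 1 kb of 20. At the edge of the rule, the 3 intervals just inside it were 34 bases (near Litaf, median fold 12.67), 40 bases (no gene, 2.55) and 60 bases (near Apobec3, 8.18) from a counted region, and the 3 just outside shared 1 base (Phf10, 13.8), 14 bases (Lsm8, 18.07) and 64 bases (Dnttip2, 11.13) with one.

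The interval with the highest percentile, chrX:143482934-143483179, 35.2 kb from Pak3, a kinase gene, had folds of 59.3, 54.08 and 56.97 with SMARTA cells and 57.04, 59.21 and 58.23 without. These were the highest folds of all 6 lists, and the 2 groups overlapped. It was narrow, at 246 bases, and lay 423.8 kb from the nearest counted region. An interval of 286 bases 14.8 kb from Dpy19l2, chr9:24541944-24542229, had folds of 51.87, 38.09 and 42.7 with SMARTA cells and 43.91, 47.53 and 44.72 without. Inside Chl1, a neural cell adhesion gene, chr6:103648977-103649361 had 46.13, 42.8 and 43.83 with and 41.83, 43.91 and 43.69 without. In each of these 3 the libraries of the 2 groups were interleaved, and the summits of the 6 lists fell within 30, 1 and 1 bases.

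The other 7 of the highest 10 had median folds of 29.26 to 34.88. They lay near Rpusd4, inside Filip1l, Camk1d and Lars2, a mitochondrial leucyl-tRNA synthetase gene, and at 3 places on chromosomes 3, 4 and 6 with no protein-coding gene within 100 kb. Replicate 2 with SMARTA cells was the lowest library in 6 of these 7, with 16.88 at Camk1d against 34.31 in replicate 1 of the same group. Replicate 2 is also the library with the fewest peaks and counts. The groups overlapped in all 7. First by −log10 q was chr2:98666181-98667390, with no gene within 100 kb, whose folds were 11.99, 11.55 and 11.65 with SMARTA cells and 11.4, 11.35 and 11.76 without.

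**Figure D4:**
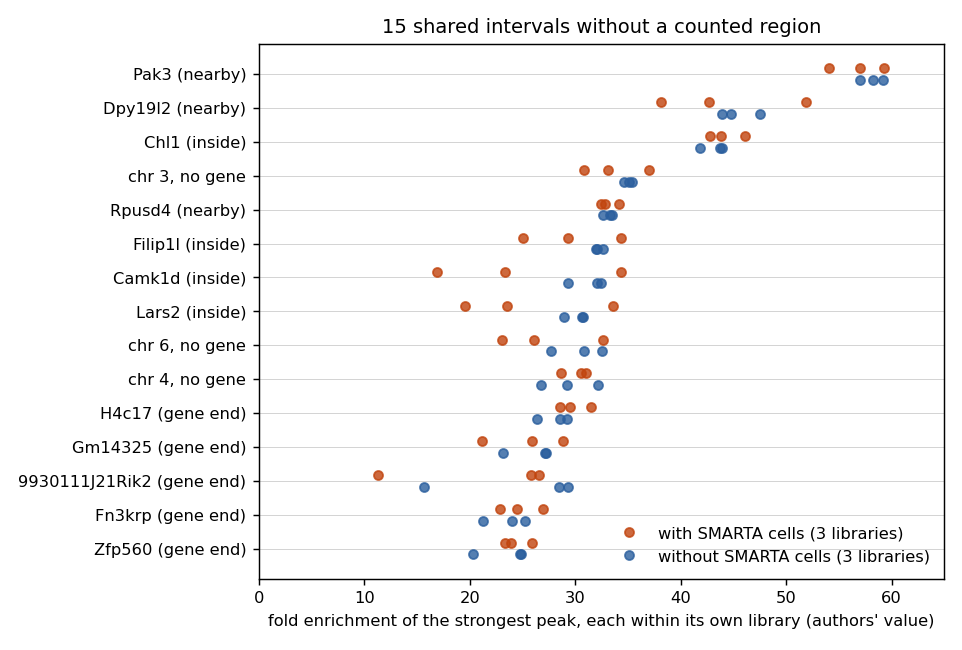
Authors' fold enrichment of the strongest peak in each library for 15 uncounted shared intervals, the 10 with the highest percentile (top) and the 5 nearest a gene end (bottom), with libraries with SMARTA cells above those without in each line. A gene end may be its start. Points of the 2 groups overlap in all 15.

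At gene ends the 5 with the highest percentile were at H4c17, Gm14325, 9930111J21Rik2, Fn3krp and Zfp560, and all 5 overlap a boundary of the gene. H4c17, chr13:21811573-21812518, had folds of 28.56, 29.53 and 31.45 with SMARTA cells and 26.36, 28.57 and 29.22 without. Fn3krp, chr11:121420818-121422233, had 26.92, 22.9 and 24.52 with and 21.29, 25.21 and 23.98 without. The widest interval of all, chr17:39843016-39846896, spanned 3881 bases over Rn18s-rs5, an 18S ribosomal RNA-related locus, with low and even folds of 2.59, 2.61 and 2.63 with SMARTA cells and 2.52 in each library without. Next came 3819 bases inside Sfi1, with 4.02, 3.64 and 4.35 with SMARTA cells and 2.31, 3.53 and 3.48 without, made of 18 peaks over the 6 lists. The lowest percentile was also in Sfi1, at 0.71, with folds of 1.83, 2.38 and 2.23 with and 1.52, 1.52 and 1.48 without.

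Histone genes, which package DNA and are copied into RNA mostly during S phase, had 19 of their 69 shared intervals uncounted (27.5%), assigned to 16 genes. Their percentiles had a median of 75.2 and a lowest value of 29.9. The 15 histone genes described next, and the gene groups after them, were chosen after their values were seen, so their levels are descriptions, and for each gene the values are those of its uncounted interval with the highest percentile. On chromosome 3 H2ac18 had folds of 11.87, 13.13 and 12.53 with SMARTA cells and 11.65, 13.06 and 12.43 without, and its copy H2ac19 had 8.35, 9.36 and 8.52 with and 7.48, 8.44 and 8.82 without. The histone H3 copies were lower, H3c14 at 6.53, 6.89 and 6.84 with and 5.64, 6.01 and 6.35 without, and H3c15 at 7.32, 7.06 and 7.35 with and 5.34, 6.79 and 6.54 without. The groups overlapped at H2ac18 and H2ac19 and did not at H3c14 and H3c15. Of the 15 genes 6 had no overlap (these 2, H2ac20, H2ac22, H2ax and H4c14), all higher with SMARTA cells, where 13.2% of all shared intervals were so. These are folds over each library's own background, and no difference between groups was tested on them.

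On chromosome 13 H4c18, whose window is printed above beside that of H4c17, had folds of 20.26, 23.75 and 22.62 with SMARTA cells and 16.73, 21.28 and 22.47 without. The linker histone gene H1f4 had 11.39, 12.32 and 12.45 with and 9.57, 11.64 and 11.53 without. H2ax, the variant phosphorylated at DNA breaks, lies apart on chromosome 9 and had 16.29, 16.13 and 15.69 with SMARTA cells and 13.77, 15.08 and 14.92 without, with no overlap, while the groups overlapped at H4c18 and H1f4. None of the 15 histone genes had another shared interval that the table counted.

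Genes of small structured RNAs formed a second set. The 17 uncounted intervals over transfer RNA genes covered 24 such genes, 15 of them under 10 intervals in the 115.3 kb gap on chromosome 1 that holds Fcgr4 and Fcgr3. Their percentiles were moderate, 35.8 to 88.5. The highest, over n-TGgcc4, a glycine transfer RNA gene, had folds of 15.4, 15.48 and 15.06 with SMARTA cells and 14.24, 16.21 and 14.51 without. Rn7sk, the gene of the 7SK RNA that holds the elongation factor P-TEFb inactive, had 11.18, 12.87 and 11.11 with and 12.36, 12.16 and 11.78 without. In both the libraries of the groups were interleaved. At transfer RNA, small nuclear RNA or ribosomal RNA-like genes lay 24 uncounted intervals, and the groups did not overlap in 7 of them. That is 29.17%, against 18.16% of all shared intervals. Of the 7, 3 were higher with SMARTA cells (12.5%, against 13.17%) and 4 lower (16.67%, against 4.99%), and these shares were not tested. The 3 lower ones over transfer RNA genes all lay in the chromosome 1 gap, so they were neighbours and not independent cases. Among the lower was the interval over Gm22634, a small nuclear RNA gene model, with folds of 16.87, 17.23 and 16.36 with SMARTA cells and 21.12, 23.44 and 24.15 without. The interval over n-TGgcc14 was lower too, at 3.57, 2.84 and 2.84 with and 5.63, 4.6 and 4.44 without, and the one over n-TVcac6, a valine transfer RNA gene, was higher, at 12.58, 13.77 and 12.97 with and 11.1, 11.69 and 12.0 without.

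Among gene families defined by name, vomeronasal receptors, pheromone receptors of the nose, had 11 of 45 shared intervals uncounted (24.4%). Zinc finger genes had 41 of 756 (5.42%) and gene models named only Gm or Rik 84 of 1154 (7.28%). Olfactory receptors, another large family, had 2 of 89 (2.25%), close to the 2.51% of all shared intervals, and ribosomal protein genes 1 of 141 (0.71%). Percentiles of the zinc finger intervals spanned 7.5 to 99.8 around a median of 43.4, so the family was spread over the range of strengths.

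The 11 interferon-inducible and antiviral genes chosen had 25 intervals assigned to them or over their promoter windows. Ifit3, an antiviral protein that works in complex with other IFIT proteins, had folds of 10.19, 9.36 and 10.49 with SMARTA cells and 9.16, 10.53 and 10.68 without. Its copy Ifit3b had 14.77, 14.54 and 14.38 with and 14.17, 14.85 and 13.94 without. Trex1, the exonuclease that clears cytosolic DNA, had 8.75, 9.71 and 9.63 with and 9.23, 9.49 and 8.92 without. All 3 overlapped between groups. The Trex1 interval lay over that gene's promoter window and was itself assigned to Atrip. The highest interval of this set lay 8.2 kb from Apobec3, the gene of a cytidine deaminase that restricts retroviruses. Its folds were 22.08, 19.07 and 22.61 with SMARTA cells and 17.79, 21.38 and 21.07 without. Oasl1, 0.5 kb from its interval, had 17.99, 14.95 and 16.89 with and 11.75, 14.86 and 16.81 without. Nuclear body genes Sp100 and Sp140, GTPase genes Tgtp1 and Gvin1, and Slfn2, which supports T cell quiescence, were also in the set. The strongest interval assigned to Gvin1 lay 55.3 kb from the gene, and that assigned to Slfn2 8.8 kb.

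Of class I-like genes and genes of ligands of the activating receptor NKG2D, 6 were chosen, and 24 intervals were assigned to them. Raet1d and H60c, further NKG2D ligand genes, also had uncounted intervals assigned to them and are not among the 6. H2-Q4 had folds of 13.6, 14.75 and 13.34 with SMARTA cells and 13.18, 15.06 and 14.04 without, and H2-Q7 had 13.51, 14.02 and 12.65 with and 13.57, 13.92 and 13.16 without. The interval 11.7 kb from Raet1e, an NKG2D ligand gene, varied most of these 6 between libraries of a group. It had 10.6, 3.01 and 10.31 with SMARTA cells and 3.82, 10.2 and 7.51 without, and the groups overlapped.

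The 12 surface receptor and ligand genes chosen had 41 intervals assigned to them. The Fc receptor genes, whose products bind antibody on myeloid cells, lie beside the transfer RNA genes named above. At Fcgr3 the strongest interval had folds of 15.4, 15.48 and 15.06 with SMARTA cells and 14.24, 16.21 and 14.51 without, which is the interval over n-TGgcc4. The interval near Fcgr4 had 9.33, 11.4 and 10.52 with and 9.11, 10.44 and 9.87 without, and it covers n-TGtcc2 and n-TLcag3. Their assignment to an Fc receptor gene therefore rests on distance.

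Ly6c1 and Ly6c2 encode the Ly6C surface proteins found on memory CD8 T cells and monocytes. The interval 3.1 kb from Ly6c1, chr15:75052006-75053013, had folds of 20.59, 18.7 and 16.98 with SMARTA cells and 5.08, 10.95 and 14.85 without. Every library with SMARTA cells was above every library without, and the libraries without ran over a wide range, with replicate 1 far below the others. Replicate 1 without SMARTA cells also had the lowest median fold over all uncounted intervals, 6.96, and its part in this difference was not tested. At Ly6c2 the folds were 12.87, 12.79 and 12.46 with and 13.05, 13.13 and 12.96 without, close together, just short of overlapping and lower with SMARTA cells. Tnfsf10, the gene of the death ligand TRAIL, was lower too, at 14.83, 14.72 and 15.56 with SMARTA cells and 16.03, 18.29 and 17.2 without, again with no overlap. Of the 12 genes, 1 was higher without overlap (8.33%, against 13.17% of all shared intervals) and 2 lower (16.67%, against 4.99%). These shares were not tested. Near Xcr1, a chemokine receptor gene, the values were 17.87, 16.66 and 17.38 with and 16.44, 17.14 and 17.85 without, and near Ifngr2, a chain of the interferon gamma receptor, 9.84, 12.3 and 10.19 with and 9.98, 11.07 and 9.39 without.

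The 5 T cell signalling genes chosen had 12 intervals assigned to them. Cbl, a ubiquitin ligase that restrains receptor signalling, had its promoter window under an uncounted interval with folds of 11.59, 11.71 and 11.66 with SMARTA cells and 11.82, 12.51 and 11.34 without. It had 3 other shared intervals that were counted. Near Grb2, an adaptor of the RAS pathway, the strongest uncounted interval had 12.07, 11.89 and 12.72 with and 12.16, 13.85 and 13.8 without. Inside Dock2, which drives lymphocyte migration, 14.07, 16.33 and 15.81 with stood beside 14.38, 14.2 and 15.76 without, 0.8 kb from a counted region. For Dock2, Fyb and Tiam1 most of the gene was in the table, with 16, 18 and 20 counted shared intervals. The uncounted interval inside Tiam1 had folds of 3.93, 4.37 and 3.81 with SMARTA cells and 3.41, 2.93 and 3.07 without. It was the only 1 of the 5 described for these genes without overlap, where 13.17% of all shared intervals were higher in this way.

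The 3 survival and stress genes chosen had 4 intervals assigned to them, with percentiles of 68.4 to 86.0. Bcl2a1d, a copy of the antiapoptotic gene A1, had folds of 13.76, 14.2 and 14.13 with SMARTA cells and 12.33, 14.14 and 14.13 without. Atf4, a transcription factor of the integrated stress response, had 15.03, 13.79 and 14.88 with and 12.96, 14.15 and 13.46 without. Gadd45b, a growth arrest gene, had 10.32, 11.54 and 10.28 with and 9.53, 9.69 and 9.64 without. The groups overlapped at the first pair of genes and not at Gadd45b. None of the 3 had a counted shared interval.

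Genes by which tumor CD8 T cells are usually described were nearly all in the table. Of 71 genes in 5 lists (T cell receptor and coreceptors, inhibitory receptors, transcription factors, effector molecules, and migration and survival), 68 matched the gene table and had 607 shared intervals, of which 1 was uncounted (0.165%, against 2.51% of all shared intervals). It lay 28.9 kb from Cd200, the gene of a ligand that inhibits myeloid cells, at chr16:45352898-45353220, with folds of 5.96, 6.86 and 9.04 with SMARTA cells and 7.3, 8.19 and 8.02 without. The groups overlapped. Cd200 had 2 other shared intervals, both counted.

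Since the uncounted intervals have no counts, the effect of SMARTA cells could be tested only at the counted regions beside them. The test was edgeR's quasi-likelihood test over all 74686 regions, with SMARTA cells minus without, with Benjamini-Hochberg adjustment and a threshold of 0.05. Regions that passed are called opened if more accessible with SMARTA cells and closed if less. Of 301 regions within 10 kb of an uncounted interval, 52 passed (17.3%), against 15.1% of all regions. Of these 22 opened (7.31%, against 4.68% of all regions) and 30 closed (9.97%, against 10.4%). The median log2 fold over the 301 was 0.049, against 0.011 over all regions, and it was 0.88 among the opened and -1.7 among the closed. The share called was thus near that of the whole table. The count fell to 33 without replicate 3 with SMARTA cells, to 31 when replicate 2 lacking SMARTA cells was left out and to 28 when replicate 3 lacking them was, where the share of all regions called was 8.29%, 8.35% and 8.13%. In the same 3 fits 14, 9 and 7 regions opened and 19, 22 and 21 closed, against 22 and 30 with all 6 libraries.

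Of the 10 flanking regions with the smallest p, 9 closed and 1 opened, and each passed in all 6 fits that left out a library. The region chr15:77938473-77938873, 1.6 kb from Foxred2, lay 4.2 kb from an uncounted interval near Txn2, a mitochondrial thioredoxin gene. It had 1.51, 0.37 and 0.97 log2 CPM with SMARTA cells and 4.17, 4.44 and 4.41 log2 CPM without, and the groups did not overlap. Its log2 fold was -3.37 (SE 0.27, edgeR adjusted p = 0.00021). Inside Eif4enif1, a gene of a translation repressor, a region 7.0 kb from an interval in Sfi1 averaged 1.75 ± 0.32 log2 CPM with and 3.7 ± 0.28 log2 CPM without (SD, n = 3 each, edgeR adjusted p = 0.00069).

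The opened region, inside Dop1b, was 8.9 kb from an uncounted interval of the same gene. It had 5.75, 5.86 and 5.72 log2 CPM with SMARTA cells and 4.75, 5.1 and 4.91 log2 CPM without, a log2 fold of 0.85 (SE 0.11, edgeR adjusted p = 0.00083). The other 7 had log2 folds of -2.66 to -1.54. They lay inside Tsr1, Pxylp1 and Snx9, 3.5 kb from Itgad, an integrin chain gene, 8.2 kb from Mgat3, a glycosyltransferase gene, 31.8 kb from Bcas1 and 52.7 kb from Efcab11. As these 10 were picked for their small p, their separation of the groups follows from the choice. What the uncounted intervals beside them did was not measured by counts.

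**Figure D5:**
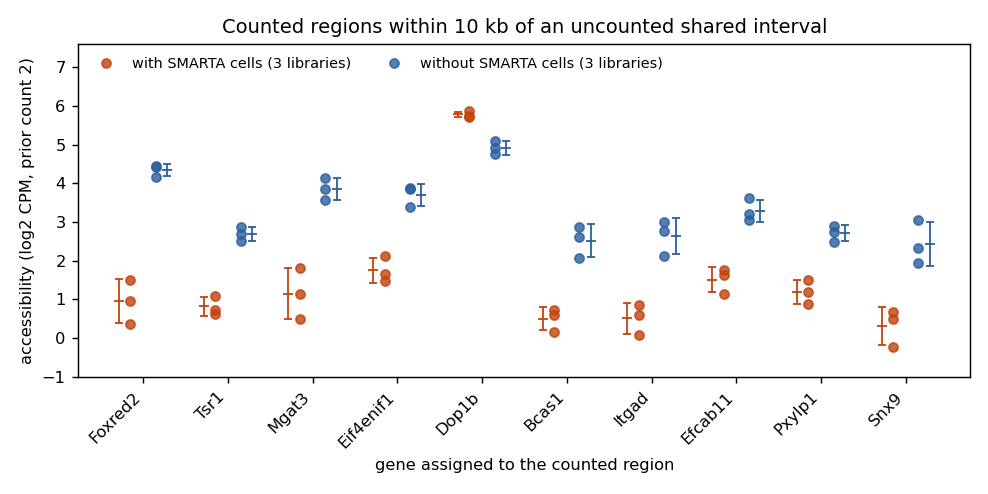
Accessibility in log2 CPM of the 10 counted regions with the smallest p among those within 10 kb of an uncounted shared interval, in 3 libraries with SMARTA cells (left of each pair) and 3 without (right); bars are the mean and SD. The Dop1b region is higher with SMARTA cells (5.78 against 4.92) and the other 9 are lower, the Foxred2 region by the most (0.95 against 4.34).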

How the data were processed

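OT1 cells were frozen after sorting, transposed and sequenced in paired reads, per the labels' protocols. Per the submitters' processing notes the build was GRCm38 and the tools included DiffBind 3.4.11, MACS2 2.1.1, Picard 2.18.9, SAMtools 1.8 and BWA 0.7.17, with no roles or settings given. Duplicate removal, read shifting, and any filter on the table (excluded regions, low counts or a cap on regions) were not stated in the sources read, and any of them could leave a peak without a counted region. Some regions may be missing from the table as used here for other reasons. The deposited counts are whole reads per region, unnormalized. The deposited peak lists, called per library, hold per peak a fold enrichment (a ratio), −log10 p and −log10 q values and a score that was not used here.

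Here peaks were merged and set against the table in Python 3.11.15 (pandas 2.3.3), genes and promoter windows came from RefSeq GRCm38.p6, and windows were compared by 31-base words and aligned with Biopython 1.88. Windows on chromosome 18 were not used. No genome sequence was used, so intervals outside promoter windows were not examined for sequence. Counts were tested with edgeR 4.0.16 under R 4.3.3 (TMM, filterByExpr, which removed 0 regions, prior count 2 for log2 CPM), after a check on simulated counts; the biological coefficient of variation was 18.0%. DESeq2 1.42.0 was an alternative.

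Intervals are named by the 10 highest and 5 lowest median percentiles, the 5 widest, the 5 nearest a gene end (ties by percentile) and those of the 5 gene lists, and flanking regions by the 10 smallest p. The intervals and lists were chosen with earlier results of these data known. Binomial intervals cover counting error only, at a confidence level of 95%.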

Additional observations from a re-analysis of the deposited data

How the results depend on the processing

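Of 48 alternatives 37 left their value within the limits set for it and 11 moved it. The number of uncounted shared intervals was 1060 to 1147 under other merging, a −log10 q of at least 5 or other overlap rules, and 1247 to 1413 when a library was left out and peaks of the other 5 were asked for. The median fold, 8.75, was 8.42 by the mean of the peaks of a list and 9.47 with a −log10 q of at least 5. Without 1 library it was 8.7 to 8.8, as a median of 6 library medians must then be 1 of its 2 middle values. The share near a gene end depended on its definition, at 45.6% within 5 kb (counted shared intervals 42.3%) and 49.6% with all gene types (41.5%). Flanking regions called numbered 14 of 108 within 5 kb and 355 of 2329 within 50 kb, and 28 to 58 of 301 without 1 library, against 6074 to 12669 over all regions. DESeq2 called 56. Windows with a copy, by settings chosen after seeing the data, were 13 at 80% of words and 41 with 21-base words. At 80% the share was 3.65% of uncounted windows, 0.09% of counted ones and 4.68% of those under no shared interval, so uncounted windows fell below the last. Replicate numbers did not pair the libraries (correlations of deviations -0.02, -0.078 and 0.076), and the fit with the replicate block called 48 flanking regions and 10475 of all. Where libraries were left out the cause was not tested. The uncounted intervals have no counts, so the depth behind them is unknown.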

Other observations

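Intervals seen by fewer lists were uncounted at other rates. With a peak in 1 list, 24881 of 25587 merged intervals overlapped no counted region (97.2%), with 2 lists 1923 of 10619 (18.1%), with 3 lists 389 of 8010 (4.86%), with 4 lists 203 of 6552 (3.1%) and with 5 lists 207 of 9400 (2.2%). At 6 lists the share was 2.51%, above that at 5. The uncounted intervals of 5 lists were weak and narrow (median fold 3.14, width 399 bases), while those of 6 lists had a median fold of 8.54 and a width of 924 bases. Counted intervals of 5 lists were not described in this way, so whether the contrast is particular to uncounted ones is unknown.

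The same gaps also held uncounted intervals of fewer lists. In the zinc finger gap of chromosome 4, 89 intervals of 2 to 5 lists lay beside the 28 of all 6, and in the H2-Q gap 9 lay beside 16. Of 118 shared intervals over a microRNA gene 4 were uncounted (3.39%, against 2.51% of all shared intervals), over Mir6546, Mir5620, Mir6936 and Mir6236, with percentiles of 66.2, 88.6, 72.2 and 93.2.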
